A study of Mus musculus with 16 samples.

Results

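The 10 genes described here belong to the transforming growth factor beta (TGF-beta) and bone morphogenetic protein (BMP) pathway. They encode ligands (Tgfb1, Tgfb2 and Bmp6), signalling receptors (Tgfbr1, Acvrl1, Tgfbr2 and Bmpr2), co-receptors (Tgfbr3 and Eng) and an inhibitor inside the cell (Smad6). They were chosen by name, and each of the 10 symbols was found once among the 15895 genes of the deposited table.

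Their transcripts were counted by RNA sequencing of cardiac lymphatic endothelium from CD1 mice, sorted for absence of the leukocyte antigen CD45 and for presence of CD31 and podoplanin. The 4 groups, with 4 libraries each, are sham operation and myocardial infarction (MI), each operated on the first day after birth (P1) or in adults of 8 weeks (P56), and in each group the cells were collected 3 days after surgery. The series design places them in an atlas of cardiac cell transcriptomes across development, repair and regeneration. The adult infarct was a permanent ligation of the left descending coronary artery, and sham animals went through the surgery without it. No group carries a transgene or deletion, per the labels. Neonatal libraries came from pools of 6 ventricles digested with agitation for 30 to 40 minutes, adult libraries from male hearts perfused with the enzyme for about 8 minutes. Age cannot be told apart from pooling, digestion, surgery and sex of the animals. Libraries carry the numbers 1, 2, 3 and 5 in each group, as in the table, and the labels do not say how the animals behind them relate, so p-values measure the spread between these libraries, which may be technical.

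Values are in the deposited unit, reads of a gene times 1 constant per library. Depth was 17103319 to 43837520 reads per library. In 13 libraries 14121 to 15821 genes had a read, and these libraries carry the tests (P1 sham n = 2, P1 MI n = 4, P56 sham n = 4, P56 MI n = 3). P1 sham libraries 1 and 2 and P56 MI library 5 had a read on 7746 to 9451 genes, and 98.6% of P1 sham library 2 and 99.8% of P56 MI library 5 were reads of the respiratory chain gene Uqcrc1. These 3 libraries enter the fit of all 16 libraries, given where it changes a direction or ends a call. Of the 13, P1 sham library 5 had 47.3% of its reads on Uqcrc1. Mitochondrial ribosomal RNA took 27.7% to 51.7% of the reads in the 13. Outside it and Uqcrc1, the 13 had 6709566 to 12918569 reads. P1 sham library 2, the deepest, had 321929 reads there, and P56 MI library 5 had 41346. Each of the 7 lymphatic markers measured (Prox1, Lyve1, Flt4, Pdpn, Reln, Mmrn1 and Nrp2) had reads in every group, and their summed value was 1154 to 3451 in the 13 libraries. Every measured marker of the other lists (endothelium at large, blood endothelium, fibroblasts, pericytes, cardiomyocytes, leukocytes, mesothelium and cell cycle) also had reads in every group. The mean summed value of the lymphatic markers was 2790 in P1 sham, 2294 in P1 MI, 2671 in P56 sham and 1841 in P56 MI. That of 7 fibroblast markers was 3967, 3121, 1487 and 4705 in the same order. Cardiomyocyte markers reached a mean sum of 1801 in P56 sham. These are sums over different genes and do not give shares of cells. In bulk RNA of sorted cells, a change in the share of a cell type and a change in the RNA per cell cannot be told apart.

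Ligands of this family are secreted dimers that assemble type II and type I receptor kinases on the cell surface, and the type I receptor then phosphorylates SMAD transcription factors. TGF-beta uses TGFBR2 with TGFBR1 and, in endothelium, also with ALK1 (the product of Acvrl1), whereas BMPs use BMPR2 with ALK1 or other type I receptors. In endothelium the ALK1 branch signals through SMAD1, SMAD5 and SMAD9 to targets such as Id1 and Id3, the TGFBR1 branch through SMAD2 and SMAD3 to targets such as Ctgf, and both branches take part in lymphatic vessel development.

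Promoter sequence is shown for 3 genes of the pathway, because each stands for a step of it: Tgfbr1 is the type I receptor of the TGF-beta branch, Smad6 the inhibitor of the BMP branch, and Id3, a gene outside the 10, a target of the BMP branch. RefSeq promoters (GRCm38.p6) were at hand for 8 of the 10 genes, and Tgfbr3 and Acvrl1 have none here. Each line gives the 250 bases before the RefSeq start on the gene's own strand, 5′ to 3′, and the start of Id3 there lies inside the gene as the table gives it. The windows are chr4:47352972-47353221 (plus strand) for Tgfbr1, chr9:64022060-64022309 (minus strand) for Smad6 and chr4:136143572-136143821 (plus strand) for Id3. Capitals mark GGCGCC, a motif associated with BMP-activated SMADs that reads the same on both strands, and CAGAC, the core of the SMAD-binding element, with its reverse complement GTCTG.
Tgfbr1: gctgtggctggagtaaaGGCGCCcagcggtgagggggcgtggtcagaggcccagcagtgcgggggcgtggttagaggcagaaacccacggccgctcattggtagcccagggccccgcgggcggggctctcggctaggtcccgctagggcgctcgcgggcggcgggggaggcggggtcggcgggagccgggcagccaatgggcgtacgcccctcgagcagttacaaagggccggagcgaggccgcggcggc
Smad6: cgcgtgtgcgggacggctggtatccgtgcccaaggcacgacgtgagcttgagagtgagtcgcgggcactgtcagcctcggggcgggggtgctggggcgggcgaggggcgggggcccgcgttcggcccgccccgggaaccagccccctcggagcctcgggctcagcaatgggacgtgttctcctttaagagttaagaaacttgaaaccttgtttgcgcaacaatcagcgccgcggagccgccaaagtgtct
Id3: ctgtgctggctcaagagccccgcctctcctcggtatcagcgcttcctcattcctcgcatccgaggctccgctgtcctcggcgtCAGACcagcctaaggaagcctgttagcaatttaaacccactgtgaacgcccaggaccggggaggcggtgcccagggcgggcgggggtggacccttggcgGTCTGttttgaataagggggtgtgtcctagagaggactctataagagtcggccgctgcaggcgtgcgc
The Tgfbr1 window holds 1 GGCGCC, which begins 233 bases before the start, and no CAGAC. Smad6 holds neither motif here, and Id3 holds 2 CAGAC matches, 1 on each strand. The motifs do not overlap in these windows. Of the 8 promoters, 2 hold GGCGCC (Tgfbr1 and Bmpr2), against 9.6% of 32851 mouse promoters of the same length, and 4 hold CAGAC (Tgfb2, Tgfbr2, Eng and Bmp6), against 42.2%. Like that of Id3, the Bmpr2 window lies inside the annotated gene. Tgfbr1 has 2 RefSeq promoter entries, and the first was used. A match is a description of letters, not a binding site.

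The type II receptors were the most abundant of the 10 transcripts per length of exon. As a mean over 13 libraries, the level of Tgfbr2 was 18.3 ± 4.10 (SD) per kb of exon and that of Bmpr2 17.2 ± 5.49. Their library ranges overlapped in each of the 4 groups, and in each group both lay above the range of Eng, the next gene. Eng was at 8.86 ± 2.20 and Tgfbr3, the other co-receptor, at 7.25 ± 1.70 per kb. These 2 co-receptors overlapped in 3 groups and were apart in P1 sham. Tgfb2 (3.43 ± 0.982 per kb), Tgfb1 (3.23 ± 1.31) and Tgfbr1 (3.10 ± 1.01) formed a middle tier whose neighbours overlapped in every group apart from P56 sham, where Acvrl1 stood between Tgfb2 and Tgfbr1 and overlapped both. Acvrl1 was at 1.62 ± 0.772, Bmp6 at 0.994 ± 0.590 and Smad6, with the lowest mean in each group, at 0.325 ± 0.332 per kb. Smad6 overlapped Bmp6 in P1 MI and P56 sham and lay below it in the other 2 groups.

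**Figure D1:**
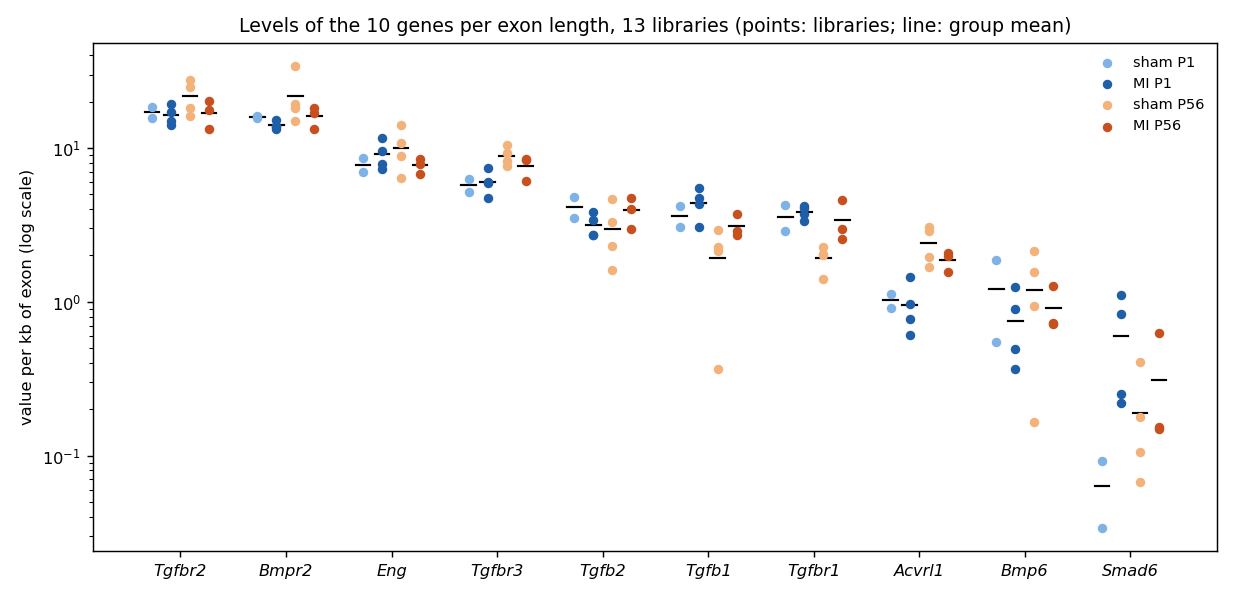
Level of each of the 10 genes as value per kb of exon (y axis, log scale), ordered by the mean over 13 libraries. Each point is a library, coloured by group, and each short line a group mean. Tgfbr2 and Bmpr2 lie at 13.3 per kb or higher in each of the 13 libraries, and Smad6 at 1.11 or lower.

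None of the 10 genes passed the test in any comparison with limma (adjusted p under 0.05 over 13033 genes, two-sided). For MI against sham at P56, 0 of 10 were called against 3.42% of all genes tested, and 1 of 10 (Tgfbr1) had an unadjusted p under 0.05, against 17.1%. At P1 0 of 10 were called against 0% of all genes, and 1 (Smad6) had an unadjusted p under 0.05, against 3.72%. For the difference between these MI responses, 0 of 10 were called against 0.483% and 0 had an unadjusted p under 0.05, against 10.9%. In these 3 comparisons edgeR on the recovered reads called 0 of the 10 (against 2.62%, 0% and 0.338% of all genes) and DESeq2 0 (against 6.64%, 0.0537% and 2.49%). For P56 against P1 in sham hearts, 0 of 10 were called against 13.2%, and 4 (Tgfb1, Tgfbr1, Tgfbr3 and Acvrl1) had an unadjusted p under 0.05, against 26.8%. Here edgeR called 1 of the 10 (Tgfbr1), against 10.8% of all genes, and DESeq2 called 2 (Tgfbr1 and Acvrl1), against 16.5%. For P56 against P1 after MI, 0 of 10 were called against 5.35% (0 with edgeR, against 3.73%, and 0 with DESeq2, against 7.86%), and 1 (Acvrl1) had an unadjusted p under 0.05, against 18.1%. With all 16 libraries 0 of 10 were called in each of the 5 comparisons, against 0.174%, 0%, 0.00755%, 3.91% and 0.106% of all genes in the same order. Counts of 0 to 4 among 10 genes, against these background shares, are no result about the 10 genes as a group. A p above the threshold does not show equal levels, so the sections on each gene give the 95% interval of the difference, not adjusted, on the log2(value + 1) scale, which understates changes of low genes.

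**Figure D2:**
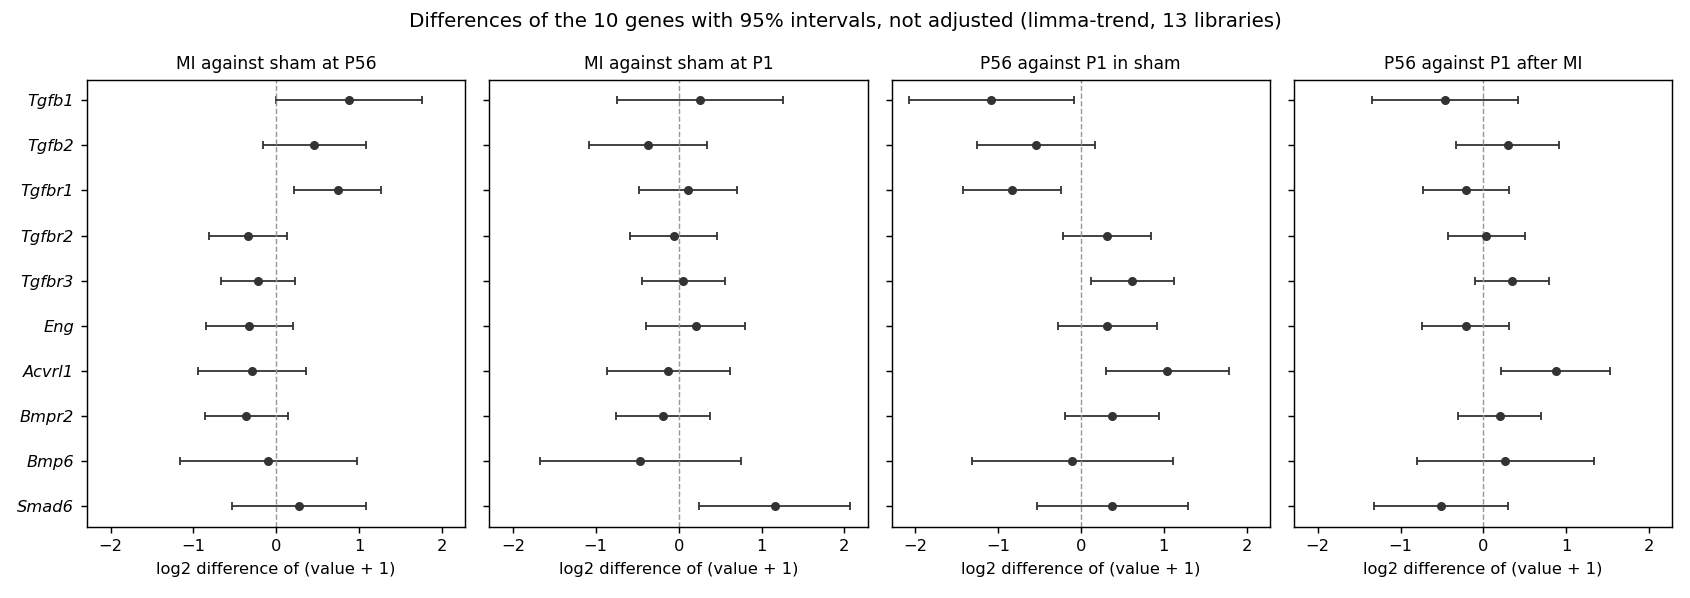
Difference of each of the 10 genes on the log2(value + 1) scale (x axis) for MI against sham at each age and for age (P56 against P1) in sham hearts and after MI, with 95% intervals that are not adjusted (limma, 13 libraries). Intervals that leave out 0 are those of Tgfbr1 for MI at P56, Smad6 for MI at P1, 4 genes for age in sham and Acvrl1 for age after MI.

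Tgfb1 (ENSMUSG00000002603, mm10 chromosome 7, 25687002 to 25705077), a widely expressed TGF-beta ligand, had its lowest group mean in adult sham hearts. It was at 15.3 and 21.2 in P1 sham, at 24.0, 21.9, 27.5 and 15.5 in P1 MI, at 10.8, 1.84, 11.4 and 14.8 in P56 sham and at 18.9, 13.7 and 14.5 in P56 MI. The 4 adult sham libraries lay below both neonatal sham libraries, and groups did not overlap for 33% of all genes there. The adult MI libraries overlapped both the adult sham and the neonatal MI ones. For P56 against P1 in sham the log2 difference was -1.08 ± 0.48 (SE; limma adjusted p = 0.151). For MI against sham at P56 it was 0.88 ± 0.42 (adjusted p = 0.293), with an interval of -0.00 to 1.76. P56 sham library 2 weighs on both values: without it they were -0.53 and 0.32.

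Tgfb2 (ENSMUSG00000039239, chromosome 1, 186622792 to 186705989), a ligand that needs the co-receptor TGFBR3 for efficient binding to TGFBR2, was at 24.0 ± 5.28 in P1 sham, 18.3 ± 3.18 in P1 MI, 17.2 ± 7.72 in P56 sham and 22.8 ± 5.16 in P56 MI. The 4 groups overlapped. The mean after MI was below that of sham at P1 and above it at P56, and the difference between the responses was 0.83 ± 0.45 (limma adjusted p = 0.531, interval -0.11 to 1.78). Bmp6 (ENSMUSG00000039004, chromosome 13, 38345716 to 38499728), a BMP ligand known from liver endothelium as an inducer of hepcidin, ranged from 0.647 to 8.28 over the 13 libraries. Its adult sham libraries alone spanned that range (25 to 487 reads), so every other group lay within theirs. Its difference for MI at P56 was -0.10 (interval -1.17 to 0.97) and changed sign when single libraries were left out (-0.61 to 0.22).

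Among the type I receptors, Tgfbr1 (ENSMUSG00000007613, chromosome 4, 47353222 to 47414931), whose promoter is printed among the sequences, had its lowest values in adult sham hearts. Its values were 18.9 and 27.8 in P1 sham and 24.2, 22.05, 27.4 and 26.6 in P1 MI. In P56 sham they were 9.21, 14.8, 13.1 and 13.3, and in P56 MI 16.8, 19.6 and 30.0. Of the 13 libraries, every adult sham one lay below every library of the other groups, and those 3 groups overlapped each other. For MI against sham at P56 the log2 difference was 0.74 ± 0.25 (interval 0.22 to 1.26, limma adjusted p = 0.114), a ratio of means of 1.75 with all 3 MI libraries above all 4 sham ones. Groups without overlap were found for 13.8% of all genes in that comparison and for 33% for P56 against P1 in sham. For P56 against P1 in sham it was -0.83 ± 0.28 (interval -1.42 to -0.24, adjusted p = 0.0587), a ratio of 0.541. This second difference passed the threshold with edgeR (-0.93, adjusted p = 0.0469), DESeq2 (-0.91, 0.0322), quantile normalization (-0.85, 0.0481) and a filter at a value of 5 (-0.83, 0.0454). Leaving out P56 sham library 2 (-0.91, adjusted p = 0.0251) or P56 MI library 3 (-0.83, 0.0486) also brought it past the threshold, whereas with all 16 libraries it was -0.29 (0.741). Fibroblast markers, 7 in number, moved in the same directions in both comparisons: their summed value was 2571 to 5362 in P1 sham, 1469 to 4305 in P1 MI, 609.7 to 2772 in P56 sham and 2972 to 6249 in P56 MI. Of the 7, 3 were lower in adult than in neonatal sham hearts and 3 were higher after adult MI, and none was at 0. Cell cycle markers moved in these directions too: 6 of 6 were lower in adult than in neonatal sham hearts. After adult MI 5 of 6 were higher and 0 lower. The part of fibroblasts and of dividing cells in the Tgfbr1 values was not tested.

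Acvrl1 (ENSMUSG00000000530, chromosome 15, 101128522 to 101145336) encodes ALK1, the endothelial type I receptor of BMP9 and BMP10, and was higher in the adult than in the neonatal libraries. It was at 3.88 and 4.82 in P1 sham, at 6.16, 4.14, 3.32 and 2.60 in P1 MI, at 8.34, 13.1, 7.20 and 12.3 in P56 sham and at 6.64, 8.88 and 8.45 in P56 MI. Of the 13 libraries, each adult one lay above each neonatal one, without overlap in sham (33% of all genes) or after MI (20.6%). The log2 difference for P56 against P1 was 1.04 ± 0.35 in sham (interval 0.30 to 1.78, limma adjusted p = 0.0589) and 0.87 ± 0.31 after MI (interval 0.22 to 1.52, adjusted p = 0.121). In sham it passed the threshold with DESeq2 (1.22, adjusted p = 0.0285), with a filter at a value of 5 (1.04, 0.0486) and without P56 sham library 3 (1.18, 0.0461), and it did not with edgeR (1.20, 0.0849) or with all 16 libraries (0.99, 0.344). After MI it was 0.08 with all 16 libraries (adjusted p = 0.995). In P56 MI library 5 Acvrl1 had 0 reads, where a count of 3 reads corresponds to a value of 12.9, so that library could not show the levels of the others. Markers of blood endothelium, which also makes ALK1, moved with the sham comparison: the summed value of 9 such markers was 324 to 372 in P1 sham, 416 to 562 in P1 MI, 673 to 1022 in P56 sham and 288 to 551 in P56 MI, and no marker of the list was at 0. Of the 9, 6 were higher in adult than in neonatal sham hearts, and 4 were lower for MI against sham at P56. For P56 against P1 after MI, 0 of the 9 were higher and 1 was lower. Cardiomyocyte markers (7 of 7) and pericyte and smooth muscle markers (3 of 7) were also higher in adult than in neonatal sham hearts. The part of these cell types in the Acvrl1 values was not tested.

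Set side by side per kb of exon, Acvrl1 and Tgfbr1 had a different balance in adult sham hearts, a ratio chosen after the values were seen and given with no test. Acvrl1 divided by Tgfbr1 was 0.315 and 0.266 in P1 sham and 0.390, 0.287, 0.186 and 0.150 in P1 MI. It was 1.39, 1.36, 0.840 and 1.42 in P56 sham, and 0.606, 0.696 and 0.432 in P56 MI. Neonatal libraries had at most 0.390, adult MI libraries lay between them and the adult sham ones, and these 3 ranges did not overlap. Each of these values rests on 133 to 725 reads of Acvrl1 and 411 to 1842 reads of Tgfbr1.

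**Figure D3:**
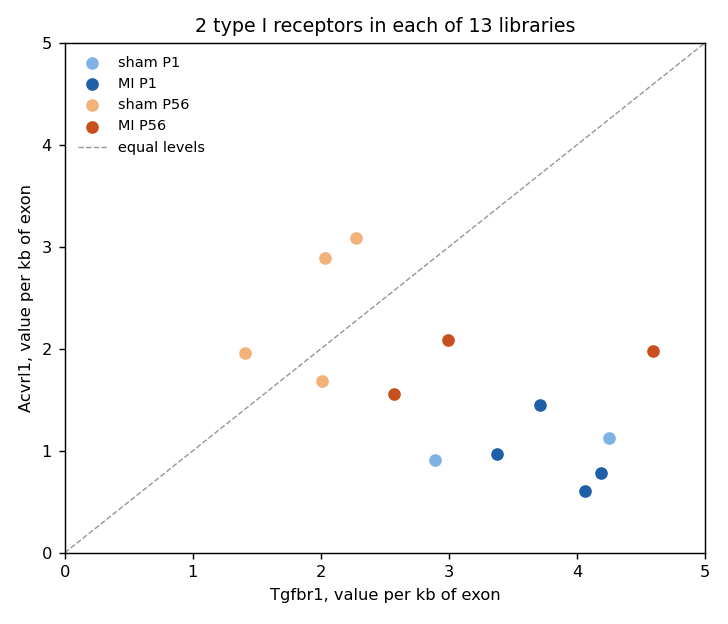
Acvrl1 (y axis) against Tgfbr1 (x axis) in value per kb of exon, 1 point per library (13), coloured by group; the dashed line marks equal levels. Of the 4 P56 sham libraries, 3 lie above the line and 1, at a ratio of 0.840, below it, and the 6 neonatal libraries lie at a ratio of 0.390 or lower.

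Of the type II receptors, Tgfbr2 (ENSMUSG00000032440, chromosome 9, 116084293 to 116175360), which binds TGF-beta first, was at 140.0 ± 16.5 in P1 sham, 135 ± 19.0 in P1 MI, 178 ± 44.7 in P56 sham and 139 ± 27.9 in P56 MI, and all groups overlapped. Its intervals were -0.81 to 0.13 for MI at P56 and -0.59 to 0.47 for MI at P1. Bmpr2 (ENSMUSG00000067336, chromosome 1, 59763400 to 59879014), the type II receptor of most BMPs and a gene of pulmonary hypertension, was at 282 and 291 in P1 sham and at 239.7, 272, 251 and 246 in P1 MI. In P56 sham it was at 271, 616, 327 and 347, and in P56 MI at 328, 306 and 240.5. P56 sham library 2 stood apart at 616, and the P1 MI libraries lay below both P1 sham libraries, as groups without overlap did for 16.2% of all genes. The difference there was -0.19 ± 0.27 (limma adjusted p = 1.00, interval -0.75 to 0.38), a ratio of means of 0.880. For MI at P56 it was -0.36 ± 0.24 (interval -0.86 to 0.14), and without P56 sham library 2 it was -0.12.

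The co-receptor Tgfbr3, or betaglycan (ENSMUSG00000029287, chromosome 5, 107106570 to 107289629), presents TGF-beta ligands to TGFBR2. It was at 41.3 and 33.9 in P1 sham, at 39.4, 38.8, 31.0 and 48.3 in P1 MI, at 50.3, 68.3, 61.05 and 53.9 in P56 sham and at 39.8, 55.6 and 55.0 in P56 MI. Adult sham libraries lay above neonatal sham ones without overlap, as for 33% of all genes, and after MI the ages overlapped through P56 MI library 1. The log2 difference for age was 0.62 ± 0.24 in sham (interval 0.12 to 1.12, limma adjusted p = 0.0998) and 0.34 ± 0.21 after MI (adjusted p = 0.435). Endoglin (Eng, ENSMUSG00000026814, chromosome 2, 32646595 to 32682669), the co-receptor of ALK1 in endothelium, was at 31.4 ± 4.63 in P1 sham, 36.8 ± 7.87 in P1 MI, 40.7 ± 13.1 in P56 sham and 31.2 ± 3.69 in P56 MI. Its 4 groups overlapped, and no interval of Eng reached beyond -1.33 or 0.91.

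The inhibitory SMAD of the BMP branch, Smad6 (ENSMUSG00000036867, chromosome 9, 63953076 to 64022059), was the lowest of the 10 and passed the filter through exactly 4 libraries. It was at 0.295 and 0.109 in P1 sham (14 and 3 reads), at 2.65, 0.704, 3.56 and 0.8002 in P1 MI (41 to 151 reads), at 0.336, 0.569, 0.217 and 1.31 in P56 sham and at 0.490, 0.474 and 2.02 in P56 MI. The 4 P1 MI libraries lay above both P1 sham libraries, as groups without overlap did for 16.2% of all genes, and the adult groups overlapped. The log2 difference for MI at P1 was 1.16 ± 0.44 (interval 0.24 to 2.07, limma adjusted p = 1.00). The ratio of means was 9.55, a ratio against 17 reads in the sham libraries together, and edgeR gave 3.18 on the reads (adjusted p = 1.00). Smad6 could not be fitted without P1 MI library 1 or 3, P56 sham library 5 or P56 MI library 3, since it then failed the filter.

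**Figure D4:**
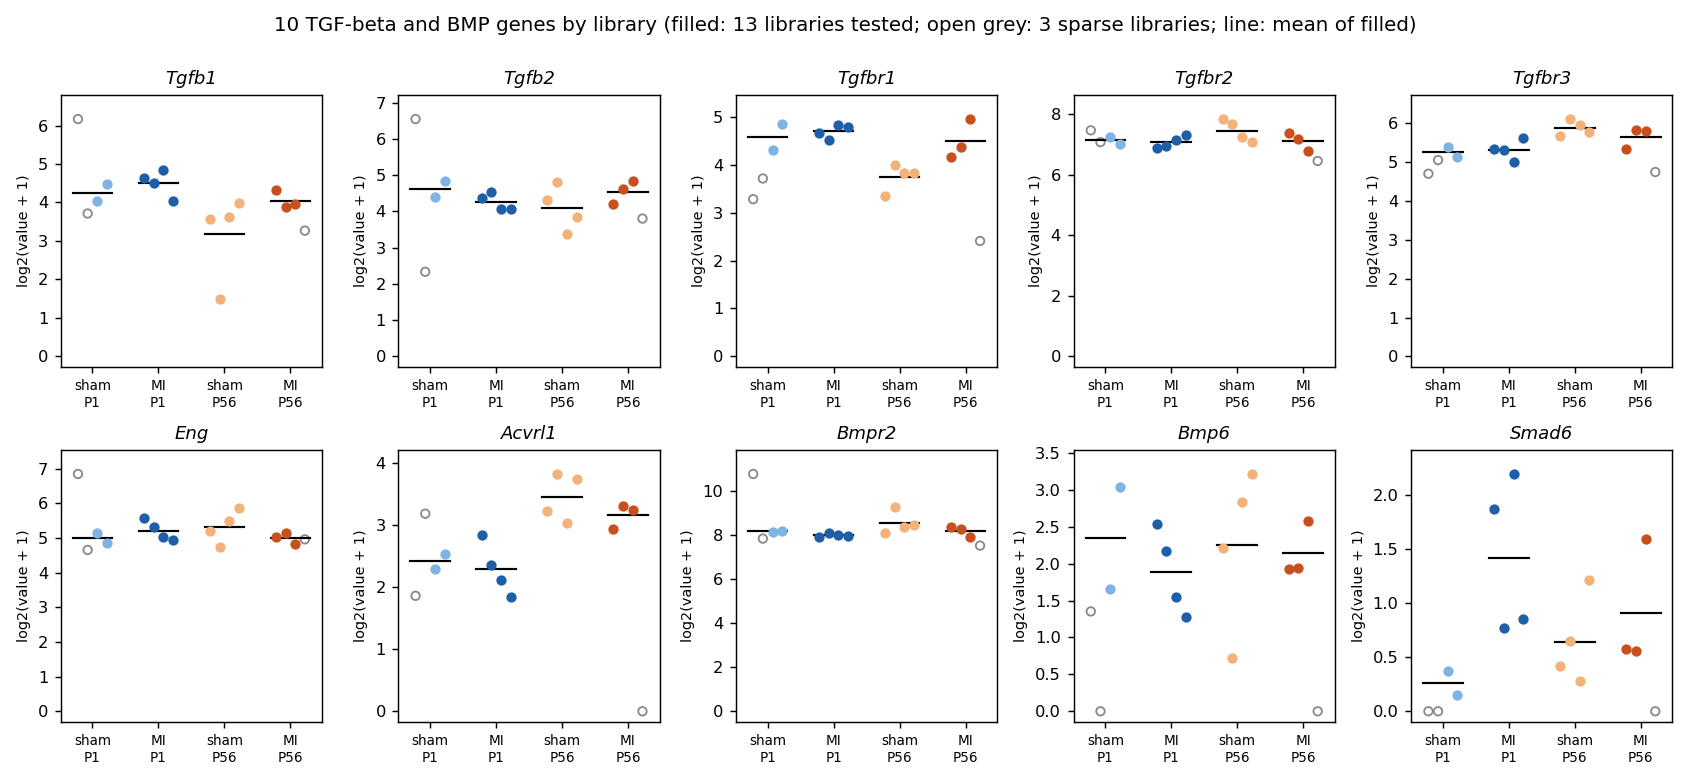
Values of each of the 10 genes as log2(value + 1) (y axis) in the 4 groups (x axis). Filled points are the 13 libraries tested, open grey points the 3 libraries with a read on fewer than 10000 genes, and lines the means of filled points. Tgfbr1 is low in each P56 sham library, and Acvrl1 is high in each adult library tested. Among filled points, P56 sham library 2 is the lowest of Tgfb1 and the highest of Bmpr2. The open point of P1 sham library 1 lies higher for Bmpr2, at a value of 1729.

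While the 10 genes were not called, some other genes of the pathway rose after infarction of the adult heart. They were on the lists of TGF-beta branch targets, of latency and activation, of secreted inhibitors and of other ligands. Of 13 measured targets of the TGF-beta branch, 3 rose (Ctgf, Ltbp2 and Acta2), 0 fell and 10 were not called, and the list had a median log2 difference of 0.47 against 0.01 over all genes. Of 15 genes of latency and activation, 3 rose (Ltbp2, Thbs1 and Fbn1) and 0 fell (median 0.81). Ltbp1, Ltbp3, Ltbp4, Lrrc32 and Nrros of that list were not called (limma adjusted p = 0.122 to 0.672). Of 8 other ligands, 2 rose (Gdf6 and Inhba) and 0 fell (median 0.73). Among 9 secreted inhibitors 1 rose (Fstl1) and 0 fell (median 0.52). Of all genes 2.36% rose and 1.07% fell. Among 10 other receptors and co-receptors, 11 SMADs and nuclear co-regulators and 5 targets of the BMP branch, 0 were called (medians 0.22, 0.04 and -0.06). The lists share genes: Ltbp2 and Skil are each in 2 of them. Smad7 is in those of SMADs, of BMP branch targets and of TGF-beta branch targets. Acta2 is also a marker of smooth muscle.

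Ctgf, a matricellular target of TGF-beta, went from 16.9 ± 7.43 in P56 sham to 72.3 ± 35.1 in P56 MI (log2 difference 1.98 ± 0.37, limma adjusted p = 0.00415). Ltbp2, an extracellular protein of the latent TGF-beta binding family, went from 3.34 ± 1.77 to 29.8 ± 16.8 (2.79 ± 0.51, adjusted p = 0.00360). Without P56 MI library 3 the adjusted p was 0.0543 for Ctgf and 0.0503 for Ltbp2. Fibrillin 1 (Fbn1), the microfibril protein to which latent complexes attach, went from 286 ± 88.7 to 714 ± 213 (1.33 ± 0.27, adjusted p = 0.00704; without P56 MI library 3, 0.0777). Thrombospondin 1 (Thbs1), an activator of latent TGF-beta, went from 24.8 ± 10.9 to 79.1 ± 35.6 (1.63 ± 0.32, adjusted p = 0.00652). Without P56 MI library 1 or 3 the adjusted p of Thbs1 was 0.0524 or 0.0528. Acta2, smooth muscle actin, went from 2.97 ± 0.844 to 24.2 ± 20.4 (2.40 ± 0.46, adjusted p = 0.00494), and without P56 MI library 3, the highest at 47.7, the difference was 1.78 (adjusted p = 0.0653). In each of Ctgf, Ltbp2, Fbn1, Thbs1 and Acta2 the 3 MI libraries lay above the 4 sham ones. Groups did not overlap for 13.8% of all genes in that comparison. These genes were named because they were called, so their separation is no further support.

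Fstl1, a secreted glycoprotein that binds BMPs, was at 78.3, 177, 179 and 121 in P56 sham and at 429.6, 445 and 707 in P56 MI (1.95 ± 0.30, limma adjusted p = 9.12e-04). The groups did not overlap, as for 13.8% of all genes. Its P1 means were 421 ± 154 (sham) and 352 ± 84.3 (MI). The difference between the responses was 2.19 ± 0.45 (adjusted p = 0.0373). That call was lost in 8 of 13 fits without 1 library: without P1 sham library 3 (2.57, 0.0754) or 5 (1.81, 0.411), P1 MI library 1 (2.25, 0.0718), 3 (2.14, 0.0871) or 5 (2.06, 0.0619), P56 sham library 5 (2.15, 0.0691) or P56 MI library 1 (2.32, 0.0567) or 3 (1.96, 0.133). It was also lost with all 16 libraries (1.79, 0.509) and with a pseudocount of 4 (2.16, 0.0501). Gdf6, a BMP ligand, went from 1.38 ± 0.960 to 12.9 ± 6.62 at P56 (2.54 ± 0.45, adjusted p = 0.00308). Inhba, the subunit of activin A, went from 6.42 ± 5.81 to 23.7 ± 5.70 (2.20 ± 0.57, adjusted p = 0.0375). Inhba was not called by edgeR (1.89, 0.179) or DESeq2 (1.89, 0.182), nor without P1 MI library 3 (0.0501), P56 sham library 1 (0.0738) or P56 MI library 1 (0.0978), 2 (0.0706) or 3 (0.182).

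Markers of other cell types moved in the same comparison. At P56 the summed value of 7 fibroblast markers was 609.7 to 2772 in sham and 2972 to 6249 in MI (3 higher, 0 lower of 7). That of 6 leukocyte markers was 5.35 to 9.19 in sham and 16.5 to 85.0 in MI (2 higher of 5 tested). Cardiomyocyte markers summed to 1257 to 2291 in sham and 317 to 562 in MI (7 of 7 lower), blood endothelial markers had 4 of 9 lower and pan-endothelial markers 4 of 6 lower. Pericyte and smooth muscle markers summed to 449 to 1152 in sham and 208 to 335 in MI, with 2 of 7 lower and 1 higher, which is Acta2 itself. Cell cycle markers summed to 22.6 to 71.3 in sham and 129.8 to 313 in MI (5 of 6 higher, median 2.19). No marker of these lists was at 0 in either group. The 7 lymphatic markers had 0 called (median -0.46). The part of these cells in the higher values of the matrix, ligand and target genes was not tested. With all 16 libraries, 2 of the 29 calls of named pathway genes were kept, both for age in sham (Neo1 and Thbs1).

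**Figure D5:**
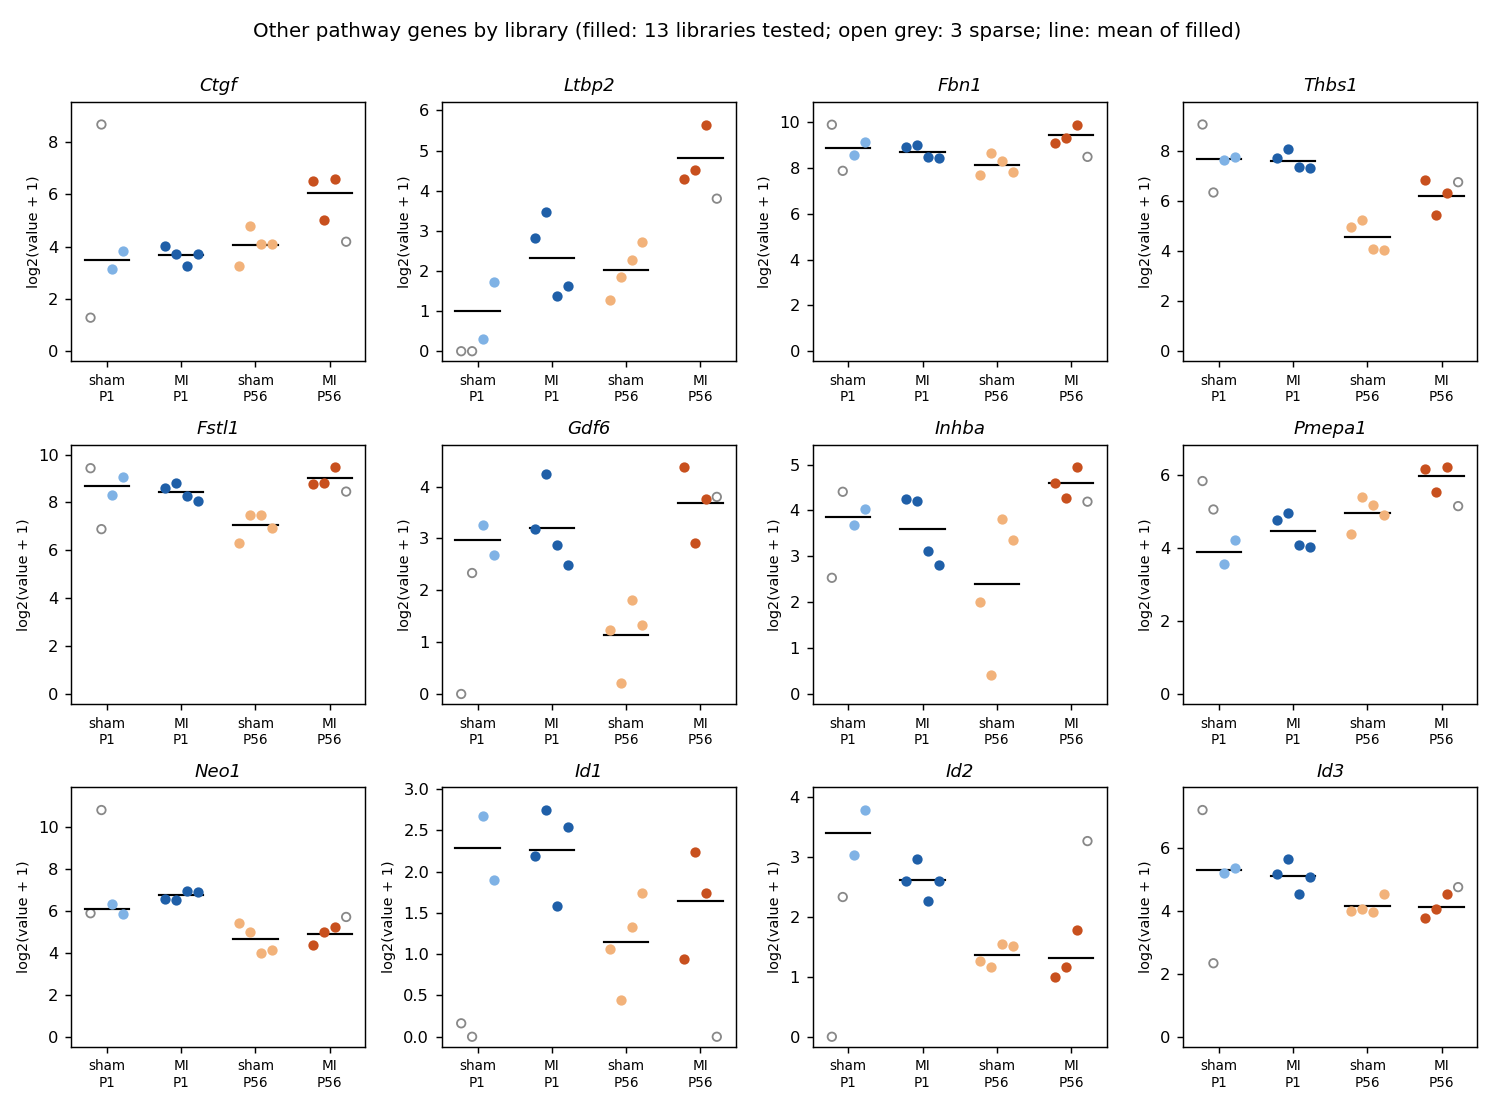
Values as log2(value + 1) (y axis) of 12 pathway genes outside the 10 in the 4 groups (x axis). Filled points are the 13 libraries tested, open grey points the 3 sparse ones, and lines the means of filled points. Ctgf, Ltbp2, Fbn1, Thbs1, Fstl1, Gdf6 and Inhba are higher in each of the 3 P56 MI libraries tested than in each P56 sham library. Groups do not overlap for 13.8% of all genes in that comparison.

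At P1, MI called 0 genes of any pathway list with limma (and 0 of 13033 genes, with 485 at an unadjusted p under 0.05; edgeR called 0 and DESeq2 7 of all genes). The medians of the 7 lists lay between -0.02 and 0.28, against 0.02 over all genes. Neo1, a receptor of repulsive guidance molecules and a BMP co-receptor, was at 79.6 and 57.0 in P1 sham and at 94.5, 92.2, 125 and 118 in P1 MI. These groups did not overlap, as for 16.2% of all genes, and the difference was 0.65 ± 0.35 (adjusted p = 1.00). With all 16 libraries its direction turned (-0.48, adjusted p = 0.738).

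Some targets of the BMP branch differed by age. Id3 (ENSMUSG00000007872, chromosome 4, 136143497 to 136145755), an inhibitor of helix-loop-helix factors whose promoter is printed among the sequences, was at 35.8 and 39.9 in P1 sham and at 35.2, 49.2, 21.9 and 32.7 in P1 MI. It was at 15.0, 15.6, 14.6 and 22.1 in P56 sham and at 12.5, 15.7 and 22.02 in P56 MI. It fell by 1.14 ± 0.30 on the log2 scale in sham (limma adjusted p = 0.0162) and by 0.99 ± 0.27 after MI (adjusted p = 0.0343), and the MI groups met at 21.9 and 22.02. Id2 fell from 9.99 ± 3.96 to 1.60 ± 0.340 in sham (-2.04 ± 0.38, adjusted p = 0.00114) and from 5.19 ± 1.25 to 1.55 ± 0.766 after MI (-1.30 ± 0.33, 0.0263). Hey1 was at 4.01 ± 1.74 in P56 MI against 19.0 ± 11.8 in P1 MI (-1.83 ± 0.47, limma adjusted p = 0.0267). In sham it was at 12.3 ± 4.43 at P56 against 12.4 ± 6.48 at P1 (-0.0017, adjusted p = 0.999). Smad7 was not called for age in sham (-0.15, adjusted p = 0.881) or after MI (-0.93, 0.217). Id1, another target, was at 4.06 and 1.33 in sham and 4.03 and 2.32 after MI as means at P1 and P56 and was not called (adjusted p = 0.119 and 0.467). Of 5 targets of this branch, 0 rose and 2 fell in sham, and 0 rose and 3 fell after MI (medians -1.14 and -0.99), against 5.89% of all genes that rose and 7.28% that fell in sham and 2.09% and 3.26% after MI. The calls in sham rest on 2 P1 sham libraries: without library 5 the adjusted p was 0.165 for Id3 and 0.0603 for Id2, and without library 3 it was 0.0860 for Id3. After MI each of the 3 calls was lost without P1 MI library 1, 2 or 5 or P56 MI library 1 or 2, with adjusted p from 0.0709 to 0.161 for Id3, 0.0622 to 0.119 for Id2 and 0.0628 to 0.138 for Hey1, and edgeR gave 0.0503 for Id3.

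Other pathway genes differed by age as well. Thbs1 was at 200.0 and 218 in P1 sham and at 30.1, 37.5, 15.9 and 15.6 in P56 sham, and fell by 3.12 ± 0.37 on the log2 scale (limma adjusted p = 1.92e-05; -3.12 and adjusted p = 8.82e-04 with all 16 libraries). Between P1 MI and P56 MI it fell by 1.42 ± 0.32 (limma adjusted p = 0.0136, and 0.120 without P56 MI library 2). Neo1 fell from 68.3 ± 15.99 to 26.2 ± 12.5 in sham (-1.45 ± 0.35, adjusted p = 0.00786; without P1 sham library 3, 0.130) and from 107 ± 16.5 to 29.5 ± 8.89 after MI (-1.86 ± 0.30, adjusted p = 9.84e-04). Fstl1 fell in sham by 1.62 ± 0.34 (adjusted p = 0.00281; without P1 sham library 5, 0.111). Pmepa1, a target that dampens TGF-beta signalling, was at 63.3 ± 15.7 in P56 MI against 21.9 ± 7.43 in P1 MI (1.52 ± 0.30, limma adjusted p = 0.00467). Ctgf (2.37 ± 0.37, 6.27e-04) and Ltbp2 (2.50 ± 0.51, 0.00620) were also higher in that comparison. In sham Pmepa1 was higher at P56 too, at 31.4 ± 9.27 against 14.3 ± 4.90 (1.07 ± 0.34, adjusted p = 0.0412). That call was lost with edgeR (0.0699) and without P56 sham library 2, 3 or 5 (0.0566 to 0.0856). It was also lost without P1 MI library 1 (0.0502) and with only the groups compared (0.0905). The difference rests on 2 P1 sham libraries: without library 3 it was 0.74 and without library 5 it was 1.40. For MI against sham at P56 Pmepa1 was not called (1.01, adjusted p = 0.0683). In sham, 2 of 11 SMADs and co-regulators fell, the TGF-beta repressors Skil (-0.94 ± 0.27, 0.0280) and Tgif1 (-1.50 ± 0.44, 0.0267), and both calls were lost without P1 sham library 3 (0.328 and 0.274). Skil also lost its call without P56 sham library 3 (0.0501) or 5 (0.0667), and Tgif1 without P1 sham library 5 (0.0709) or P56 sham library 1 (0.0577). The integrin subunit Itgav, a part of receptors that release latent TGF-beta, fell in sham from 95.3 ± 7.37 to 52.3 ± 7.44 (-0.86 ± 0.21, 0.00814), and without P1 sham library 3 or 5 the adjusted p was 0.105 or 0.0581. Gdf6 fell in sham by 1.82 ± 0.51 (0.0223), which was lost without P1 sham library 3 (0.211) or 5 (0.0833). Bmper, a secreted modulator of BMPs, was at 18.3 ± 5.87 in P56 MI against 4.33 ± 2.08 in P1 MI (1.90 ± 0.53, limma adjusted p = 0.0377). It lost that call with edgeR (0.0907) and without P1 MI library 1, 3 or 5 or P56 MI library 1, 2 or 3 (0.0667 to 0.150). For MI against sham at P56 Bmper was not called (adjusted p = 0.389). Cell cycle markers moved with age too, with a summed value of 445 to 504 in P1 sham and 22.6 to 71.3 in P56 sham (6 of 6 lower), and cardiomyocyte markers of 145 to 218 and 1257 to 2291 (7 of 7 higher). Fibroblast markers summed to 2571 to 5362 in P1 sham and 609.7 to 2772 in P56 sham (3 of 7 lower, 0 higher, median -1.52), the direction of Thbs1, Fstl1, Gdf6 and Itgav. Pericyte and smooth muscle markers summed to 103 to 212 and 449 to 1152 (3 of 7 higher), and blood endothelial markers had 6 of 9 higher. The part of these cell types was not tested.

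Genes whose pattern over the 13 libraries was most like each of the 10 were found by Pearson's r of log2(value + 1), among 6095 genes with a mean of at least 5. The libraries share groups, ages and scaling, and r is a description. Tgfb1 was most like Anxa6, an annexin (r = 0.973), and Tgfbr1 most like Eprs, a tRNA synthetase (0.934). Acvrl1 was most like B2m, the light chain of MHC class I (0.955), Srgn (0.954) and Ly6c1, an antigen of blood endothelium and monocytes (0.932). For the other receptors the nearest genes were Abca1 for Tgfbr2 (0.920), Psip1 for Bmpr2 (0.937), Ints6l for Tgfbr3 (0.946) and Fam102a for Eng (0.83). For the others they were Lpp for Tgfb2 (0.887), Cdc23 for Bmp6 (0.909) and Abhd4 for Smad6 (0.777). No 2 of the 10 genes shared their nearest gene.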

How the data were processed

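One deposited table with 15895 genes and 16 libraries of sorted cardiac lymphatic endothelial cells was analysed. The submitters' processing notes name Trimmomatic, STAR, HTSeq, edgeR and the mm10 (GRCm38) genome, and versions are not given in the sources used here. Its values, in the unit signal and named CPM by the authors, are whole reads times a constant for each library (at least 99.98% of values within 0.01 read), and they match CPM scaled by TMM in edgeR, with a largest deviation of 2.78e-06% and TMM factors of 0.00565 to 3.36. The design had assumed plain CPM-like values, and the test was kept. Columns carry the number 5 where labels have 4, so such a column was assigned to its group by name and to no sample.

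The 10 genes, the pathway and marker lists and the choice of 13 libraries (at least 10000 genes with a read) were made with earlier results of these data known. The filter asked for a value of 1 or more in 4 or more of the 13 libraries (13033 genes). Values as log2(value + 1) were fitted with limma-trend (limma 3.58.1, R 4.3.3) and 4 group means, and p-values were adjusted by Benjamini-Hochberg over all genes, with a threshold of 0.05. Count tests on the recovered reads used DESeq2 1.42.0 and the quasi-likelihood test of edgeR 4.0.16. Other alternatives were a fit of all 16 libraries, a filter at 5 or none, a pseudocount of 0.25 or 4, quantile or median-of-ratios scaling, a fit of only the groups compared, a block for the replicate number, and leaving out each library. The method was tested on simulated data. Levels per kb used merged exons of GENCODE M21, in which 9 of the 10 genes had the table's coordinates and Bmp6 did not. Named pathway genes are up to 4 called genes per list, smallest adjusted p first, plus Id1, Id3 and Smad7. An item of that rule is not reported here. The ratio of Acvrl1 to Tgfbr1 was chosen after their values were seen.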

Additional observations from a re-analysis of the deposited data

Results flagged for a closer look

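In groups of 4 libraries, 3 of 40 group and gene pairs had a library far from the others, and chance marks about 5% of such groups. All 3 are the same library, P1 sham library 1, which is outside the 13 libraries tested. Tgfb1 was at 70.88 there, Eng at 114.4 and Bmpr2 at 1729, each above the other 3 P1 sham libraries by a gap of 0.845, 0.884 and 0.957 of the group's range, past Dixon's limit at the 95% level. The value of Bmpr2 there rests on 14468 reads, and the library had a read on 9451 genes.

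For 1 named pathway gene, Fstl1, the MI response differed between the ages by the interaction test of limma. Its response was larger at P56 by 2.19 on the log2 scale (adjusted p = 0.0373), with a rise at P56 in 3 of 3 MI libraries. That call was lost in 8 of 13 fits without 1 library, with all 16 libraries (1.79, adjusted p = 0.509) and with a pseudocount of 4 (2.16, 0.0501). DESeq2 also called the interaction for Fbn1 (1.48, adjusted p = 0.0353) and Acta2 (2.72, 0.0255). Of all genes limma called 0.483% for the interaction and DESeq2 2.49%.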

How the results depend on the processing

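The count of the 10 genes called stayed at 0 in every alternative run for 4 of the 5 comparisons. For P56 against P1 in sham it was 2 with a filter at 5 and with DESeq2, 1 with edgeR and with quantile normalization, and 0 to 1 without 1 library. Whether same-numbered libraries form pairs or share a batch could not be settled from their correlations. Deviations of 15 same-numbered pairs correlated at -0.32 to 0.135 and 47 other pairs at -0.146 to 0.32. Of the 13 libraries, 3 correlated best with their own number. Deviations were taken from group means of 2 to 4 libraries, and those of the 2 P1 sham libraries mirror each other by construction. Their r with P1 MI library 5 was 0.32 and -0.32. With the replicate number as a block, 0 of the 10 genes were called in each comparison, and 331 of all genes (446 without the block) for MI at P56, 8 (63) for the interaction, 1215 (1716) for age in sham and 551 (697) after MI. Of the 29 calls of named pathway genes, 28 were kept with DESeq2, 24 with edgeR, 21 with the block, 26 with a pseudocount of 4, 21 of 28 with only the groups compared, 2 with all 16 libraries, and 20 to 28 without 1 library. Calls lost with the replicate block were those of Fstl1 for the interaction (adjusted p = 0.0736), of Id2 (0.075), Id3 (0.0815), Hey1 (0.0633) and Tgif1 (0.0642) for age after MI, and of Tgif1 (0.0713), Skil (0.0864) and Pmepa1 (0.126) for age in sham.

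Directions that turned belong to differences that were not called. With all 16 libraries these were, for MI at P1, Tgfb1 (-0.0861), Eng (-0.16) and Bmp6 (0.37), for the interaction Tgfbr1 (-0.44), Bmpr2 (0.22) and Bmp6 (-1.01), for age in sham Eng (-0.0549), Bmpr2 (-0.19) and Bmp6 (0.73), and for age after MI Tgfbr2 (-0.13) and Bmp6 (-0.27). With the replicate block Tgfbr2 for age after MI was -0.0072, and Bmp6 was 0.0431 for MI at P56 and 0.11 for age in sham, where quantile normalization gave 0.0116. Without 1 library, ranges that crossed 0 were, for MI at P1, Tgfbr1 (-0.15 to 0.39), Tgfbr2 (-0.18 to 0.0574), Tgfbr3 (-0.0843 to 0.20), Acvrl1 (-0.31 to 0.023) and Bmp6 (-1.16 to 0.23). They were also Bmp6 for MI at P56 (-0.61 to 0.22), Acvrl1 (-0.32 to 0.0134), Bmpr2 (-0.33 to 0.067) and Bmp6 (-0.33 to 1.06) for the interaction, Tgfbr2 for age after MI (-0.0945 to 0.20) and Bmp6 for age in sham (-0.80 to 0.59). The cause was not tested. In the sparse libraries 3 reads correspond to values of 12.9, 12.1 and 0.359, so low genes such as Acvrl1, Bmp6 and Smad6 cannot be read in 2 of them.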

Other observations

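Smad7, the inhibitory SMAD of both branches, was at 4.49 ± 1.90 in P1 sham, 6.96 ± 3.22 in P1 MI, 4.02 ± 1.55 in P56 sham and 3.14 ± 1.71 in P56 MI and was called in 0 of 5 comparisons with limma, edgeR or DESeq2 (limma unadjusted p under 0.05 for age after MI). In adult against neonatal sham hearts, 2 of 15 genes of latency and activation rose, Ltbp4 (1.01, limma adjusted p = 0.0167) and the integrin subunit Itgb3 (0.95, 0.0458), and 2 of 15 fell (Thbs1 and Itgav). The median of the list was -0.20, and of all genes 5.89% rose and 7.28% fell. For MI against sham at P56, DESeq2 called 3 named pathway genes that limma did not, Itgav (0.59, adjusted p = 0.0367), Pmepa1 (1.00, 0.0456) and Hey1 (-1.62, 0.0289), while Tgfbr1 was at 0.79 (0.0654). These genes were picked after their values were seen.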
